A study of Bos taurus with 12 samples.

Results

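The genes described here are the ADP/ATP carriers SLC25A4, SLC25A5 and SLC25A6 and the mitochondrial porins VDAC1, VDAC2 and VDAC3, in embryos of Japanese Black cattle produced in vitro. Every probe set whose annotation names exactly 1 of these symbols was taken, which gave 10 probe sets for the 6 genes, out of 24016 probe sets and 9155 named genes tested. SLC25A4, VDAC2 and VDAC3 had 1 probe set each, SLC25A5 and VDAC1 had 2 and SLC25A6 had 3.

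Embryos came from oocytes of adult cows, whose ovaries were taken at an abattoir, or of prepubertal heifers aged 9 to 12 months, whose ovaries were removed with a spay device on farms. Oocytes of both origins were matured in culture, fertilized with frozen-thawed semen of a Japanese Black bull and cultured in CR1aa medium, first with albumin and then with serum. The 8-16-cell embryos were pooled by 50 on day 3, which was 70 to 72 h from insemination, and blastocysts, expanded but not hatched, were pooled by 10 on day 7. Each of the 4 groups (adult 8-16-cell, prepubertal 8-16-cell, adult blastocyst, prepubertal blastocyst) was measured on 3 arrays, with a separate pool for each array (n = 3 per group). Embryos were picked for normal morphology, so embryos that had stopped developing are not represented. Stage, pool size and time in serum change together and cannot be told apart. Likewise, donor age and the way the ovaries were obtained change together in every donor comparison and cannot be told apart.

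ADP/ATP carriers sit in the inner mitochondrial membrane and exchange cytosolic ADP for ATP made in the matrix, so the ATP of respiration reaches the rest of the cell through them. Porins, also called voltage-dependent anion channels, are barrels in the outer membrane through which ADP, ATP and metabolites pass. Early embryos inherit their mitochondria from the oocyte, and the blastocyst, which pumps sodium to fill its cavity, is the stage at which oxygen use is known to rise.

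Each value is a MAS5 signal, a brightness per probe set scaled to the same mean on every array, so it gives a gene's share of the amplified RNA and not an amount per embryo. In whole embryos, fewer cells of a type and less RNA per cell cannot be told apart. Signals of different probe sets were not compared with each other. An array's background was set at its brightest control probe set for Bacillus subtilis genes, and it lay between 122 and 424 on 11 arrays. Prepubertal 8-16-cell replicate 3 stood apart with a background of 1664, 1255 probe sets above it (4297 to 8500 on each other array), and 0 of the 10 probe sets described here above it. The main differences that use this array are also given without it. The hybridization controls were 3.03-fold brighter in prepubertal than in adult 8-16-cell arrays and 1.06-fold in blastocysts.

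The stage labels were checked against markers. The summed signal of 9 trophectoderm genes was 113882 to 161961 in adult and 139127 to 180728 in prepubertal blastocysts, against 683 to 963 and 744 to 2592 at the 8-16-cell stage. Oocyte genes ran the other way, with 7 measured genes summing to 32775 to 56887 (adult) and 52267 to 266272 (prepubertal) in 8-16-cell embryos and to 730 to 759 and 233 to 1715 in blastocysts. Both shifts move with every stage difference below, and their part in it was not tested. Of 12 cumulus and granulosa cell genes, 6 (FSHR, AMH, INHA, PTX3, NR5A1 and CYP11A1) were above background on 0 of 12 arrays, and the summed signal was 1239 to 4479 and 1786 to 15421 in adult and prepubertal 8-16-cell embryos and 2898 to 4368 and 1568 to 2988 in blastocysts. STAR and HAS2 were each above background on 8 of the 12. Blood genes (7 measured) summed to 356 to 3047 over all arrays and sperm genes (6 measured) to 203 to 1681.

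Blastocysts held far more SLC25A5 and VDAC2 signal than 8-16-cell embryos, whichever donors the oocytes came from. These were the probe sets that passed the test, 2 of 10, in adult embryos, in prepubertal embryos and in the mean of both, and none was lower. Among all probe sets, 1.26% were called higher in adult, 1.43% in prepubertal and 3.9% in the mean of both donor groups. SLC25A4 and SLC25A6 had higher means in blastocysts but did not pass, and the brighter VDAC1 probe set and VDAC3 did not pass either, with differences of opposite sign in the donor groups. The median difference over the 10 probe sets was 0.77 on the log2 scale in adult embryos, where the median of all probe sets was 0.08. In prepubertal embryos it was 1.25 against -0.37, and in the mean of both it was 1.16 against -0.17. All log2 values are of signal + 16, so folds of dim signals are understated.

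**Figure D1:**
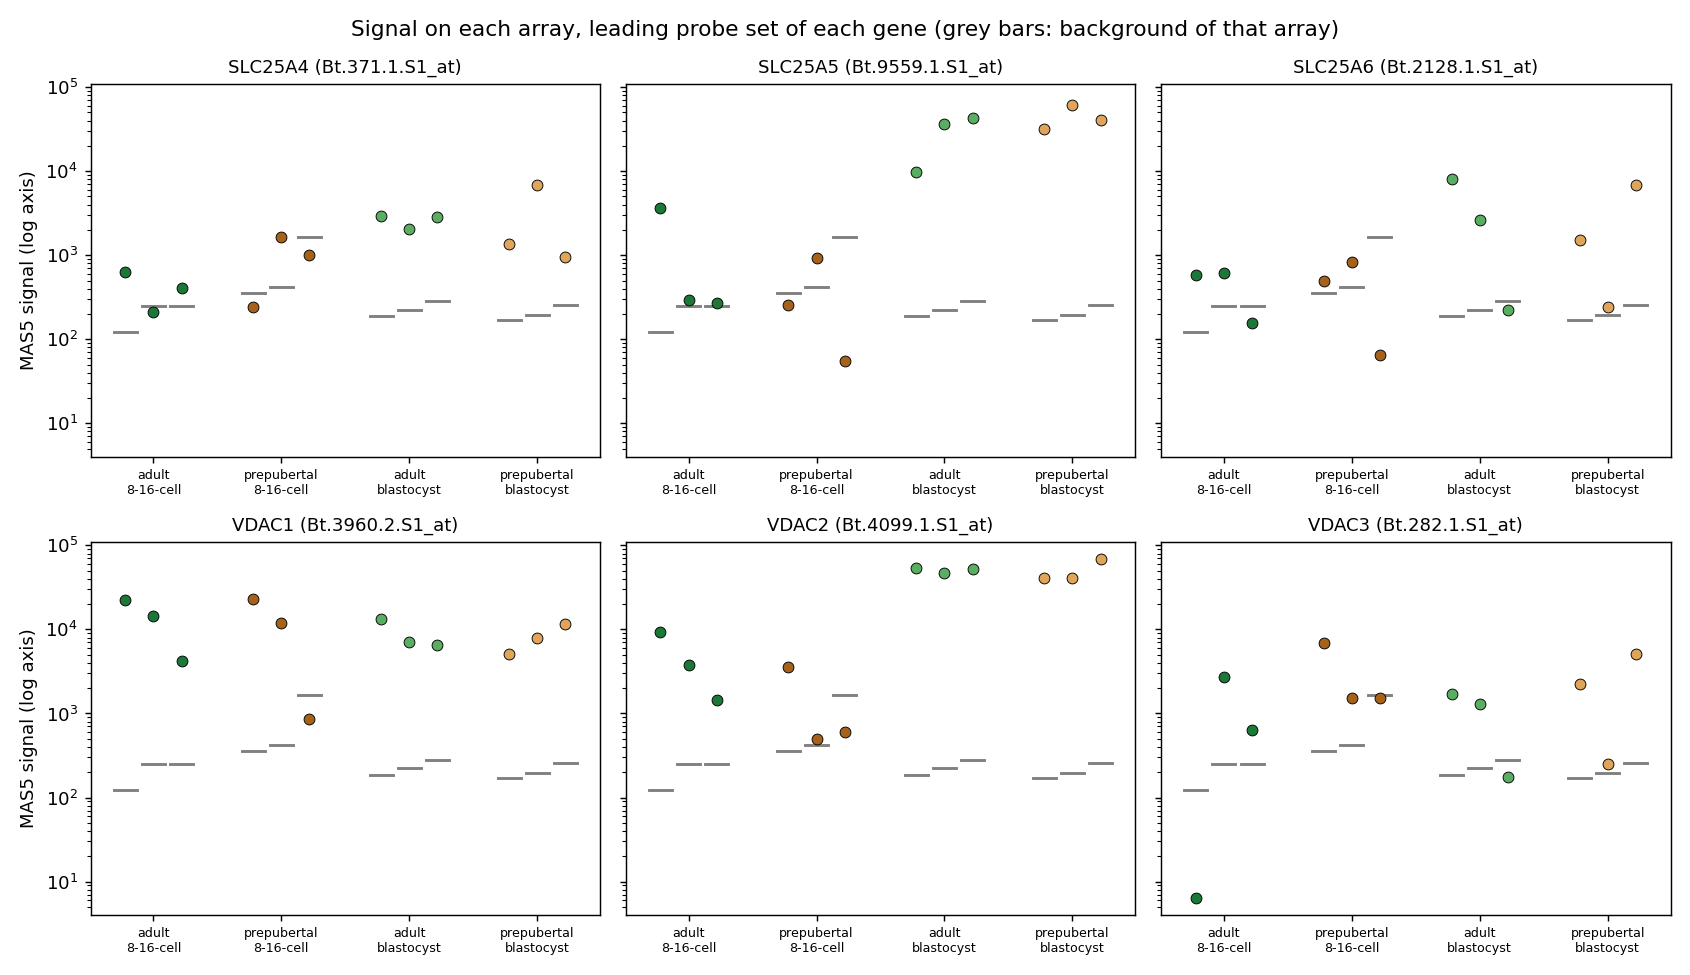
MAS5 signal (log axis) of the brightest probe set of each gene on every array, by group, with a grey bar at the background of that array. All 6 blastocyst arrays lie above all 6 8-16-cell arrays for SLC25A5 and VDAC2, while VDAC1 signals of the stages overlap and VDAC3 scatters within groups.

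SLC25A5, often called ANT2, is the ADP/ATP carrier typical of dividing cells. Its brighter probe set, Bt.9559.1.S1_at, read 3659, 290 and 270 on the adult 8-16-cell arrays and 258, 923 and 56 on the prepubertal ones. In blastocysts it read 9844, 36050 and 42731 (adult) and 31378, 60660 and 41052 (prepubertal). Every blastocyst array was above every 8-16-cell array, and the dimmest blastocyst pool was adult replicate 1. Group means on the log2 scale ran from 8.05 ± 1.86 (SD) in prepubertal and 9.42 ± 2.10 in adult 8-16-cell embryos to 14.60 ± 1.16 in adult and 15.38 ± 0.48 in prepubertal blastocysts, with arrays of the donor groups overlapping at each stage. At the 8-16-cell stage 3 adult arrays and 1 prepubertal array were above background.

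The rise of SLC25A5 was 5.18 on the log2 scale (SE 1.20, 36.1-fold, limma adjusted p = 0.00477) in adult embryos. It was 7.34 (SE 1.20, 162-fold, adjusted p = 5.89e-06) in prepubertal embryos, and 6.40 (SE 1.07, adjusted p = 1.64e-05) without prepubertal 8-16-cell replicate 3. The mean over donor groups was 6.26 (SE 0.85, adjusted p = 3.07e-09), or 6.43 above the median of all probe sets, and 5.79 (adjusted p = 4.08e-10) without that array. With every signal raised to the highest background, which removes differences among dim arrays, the rises were 3.51 in adult and 4.67 in prepubertal embryos and both still passed. The adult call was lost without adult blastocyst replicate 2 (4.90, adjusted p = 0.0535) or replicate 3 (4.78, adjusted p = 0.0644).

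The other SLC25A5 probe set, Bt.9559.2.S1_at, did not follow. It read 430, 152 and 17 in adult and 146, 385 and 1273 in prepubertal 8-16-cell embryos, and 173, 230 and 104 in adult and 254, 29 and 19 in prepubertal blastocysts. It was above background on 3 of 12 arrays, and its stage difference was 0.40 (adjusted p = 0.978) in adult and -2.54 (adjusted p = 0.429) in prepubertal embryos. The calls for SLC25A5 therefore rest on 1 of its 2 probe sets.

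SLC25A4, or ANT1, is the carrier best known from heart and skeletal muscle. Its probe set, Bt.371.1.S1_at, read 635, 209 and 409 in adult 8-16-cell embryos against 2907, 2033 and 2874 in adult blastocysts. Prepubertal embryos read 243, 1654 and 997 at the 8-16-cell stage and 1375, 6795 and 949 as blastocysts. Adult stages did not overlap, while prepubertal stages did.

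The SLC25A4 difference was 2.71 (SE 1.41, adjusted p = 0.472) in adult and 1.46 (SE 1.41, adjusted p = 0.714) in prepubertal embryos. In the mean of both it was 2.08, with a 95% interval of 0.12 to 4.04, and the adjusted p was 0.252. Without prepubertal 8-16-cell replicate 3 the prepubertal difference was 1.67 (adjusted p = 0.701) and the mean 2.19 (adjusted p = 0.196). The adult and prepubertal values were 0.62 and 0.67 with every signal raised to the highest background, and leaving out 1 array gave 0.61 (without prepubertal blastocyst replicate 2) to 2.03 in prepubertal embryos. All adult blastocyst arrays exceeded all adult 8-16-cell arrays on 3 of the 10 probe sets (SLC25A4 and the leading ones of SLC25A5 and VDAC2), where 9.55% of all probe sets did so. In prepubertal embryos 3 of 10 did so (SLC25A5, VDAC2 and the dimmer probe set of VDAC1) against 7.35% of all, and over both donor groups 2 of 10 (SLC25A5 and VDAC2) against 2.17%.

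SLC25A6, or ANT3, is a broadly expressed carrier that mice and rats lack. Its brightest probe set, Bt.2128.1.S1_at, read 583, 608 and 157 in adult and 489, 824 and 64 in prepubertal 8-16-cell embryos. Blastocysts read 7997, 2640 and 225 (adult) and 1507, 244 and 6784 (prepubertal). In each donor group 1 blastocyst pool stayed within the range of the 8-16-cell pools, and the blastocyst SD was 2.58 in adult and 2.36 in prepubertal embryos. The difference was 2.10 in both donor groups (SE 1.48 each, adjusted p = 0.695 and 0.568), and the mean had a 95% interval of 0.05 to 4.16 with an adjusted p of 0.282. Without prepubertal 8-16-cell replicate 3 the prepubertal difference was 1.09 and the mean 1.6 (adjusted p = 0.463).

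The remaining SLC25A6 probe sets were dim. Bt.5176.1.S1_at read 116, 1030 and 21 in adult and 31, 122 and 948 in prepubertal 8-16-cell embryos, and 54, 5 and 14 in adult and 299, 290 and 552 in prepubertal blastocysts. Bt.5176.2.A1_at stayed between 3 and 616 and was above background on 1 of 12 arrays. Neither passed in any comparison, and their stage differences over both donor groups were -0.61 (adjusted p = 0.844) and 0.28 (adjusted p = 0.932).

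VDAC2 is the porin that holds the cell death protein BAK at the outer membrane. Its probe set, Bt.4099.1.S1_at, read 9350, 3761 and 1440 in adult and 3532, 494 and 594 in prepubertal 8-16-cell embryos. In blastocysts it read 53511, 46937 and 52098 (adult) and 41355, 40857 and 69209 (prepubertal). The stages did not overlap, and blastocyst pools were close together, with a log2 mean of 15.63 ± 0.10 in adult and 15.58 ± 0.43 in prepubertal blastocysts. The 8-16-cell means were 11.86 ± 1.34 and 10.01 ± 1.55, and the donor groups overlapped at both stages.

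VDAC2 rose by 3.77 (SE 0.97, 13.6-fold, adjusted p = 0.0133) in adult embryos. In prepubertal embryos it rose by 5.56 (SE 0.97, 47.3-fold, adjusted p = 2e-05), and by 5.18 (SE 0.83, adjusted p = 4.79e-06) without prepubertal 8-16-cell replicate 3. The mean rise was 4.67 (SE 0.69, adjusted p = 5.16e-08), or 4.84 above the median of all probe sets, and 4.48 (adjusted p = 3.35e-10) without that array. The adult call was the less secure. Omitting adult 8-16-cell replicate 3 ended it (3.09, adjusted p = 0.132), as did going without adult blastocyst replicates 1, 2 or 3 (3.73, 3.83 and 3.75, adjusted p = 0.0835, 0.0721 and 0.0794) or using a variance prior that ignores signal level (adjusted p = 0.0807).

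VDAC1 is the porin best known as the docking site of hexokinase. Its brighter probe set, Bt.3960.2.S1_at, read 22154, 14462 and 4261 in adult and 22801, 11787 and 849 in prepubertal 8-16-cell embryos. Blastocysts read 13212, 7041 and 6548 (adult) and 5099, 7983 and 11627 (prepubertal). The stages overlapped in both donor groups, and the lowest of the 12 values came from the array that stood apart. The log2 group means were 13.44 ± 1.23 and 12.59 ± 2.50 in adult and prepubertal 8-16-cell embryos and 13.05 ± 0.56 and 12.93 ± 0.59 in blastocysts. The difference was -0.39 (SE 1.02, adjusted p = 0.968) in adult and 0.34 (SE 1.02, adjusted p = 0.925) in prepubertal embryos, and the latter was -1.07 (adjusted p = 0.675) without prepubertal 8-16-cell replicate 3. The 95% interval of the mean difference, -1.45 to 1.41, leaves room for a change in either direction, and without that array the mean was -0.73 (adjusted p = 0.603).

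The other VDAC1 probe set, Bt.3960.1.S1_a_at, carries the suffix Affymetrix gives to probes shared by several transcripts of a gene. It read 4, 1010 and 33 in adult and 12, 32 and 234 in prepubertal 8-16-cell embryos, 93, 193 and 81 in adult blastocysts, and 1147, 423 and 1379 in prepubertal blastocysts. All 3 prepubertal blastocyst arrays were above background and above all prepubertal 8-16-cell arrays, none of which reached background, so the difference is given as at least 1.37-fold (adjusted p = 0.174, not passed). Without the array that stood apart it was at least 2.21-fold (adjusted p = 0.101). The probe sets of VDAC1 thus gave different pictures, and which transcripts each one reads was not analysed here.

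VDAC3 is the porin best known for its cysteine residues and its role in sperm motility. Its probe set, Bt.282.1.S1_at, read 6, 2729 and 636 in adult and 6976, 1510 and 1536 in prepubertal 8-16-cell embryos, and 1718, 1294 and 177 in adult and 2249, 252 and 5034 in prepubertal blastocysts. Pools of one group differed widely, and the pooled SD within groups, 2.35, was above that of 95.2% of probe sets, while that of VDAC2, 1.05, was above 12.8%. The stage difference was 1.15 (adjusted p = 0.893) in adult and -0.81 (adjusted p = 0.866) in prepubertal embryos, and the mean had a 95% interval of -1.87 to 2.21. Without adult 8-16-cell replicate 1, the array that read 6, the adult value was -0.82. Without prepubertal 8-16-cell replicate 3 the prepubertal value was -1.17 and the mean -0.01, and without prepubertal blastocyst replicate 2 the prepubertal value was 0.41.

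**Figure D2:**
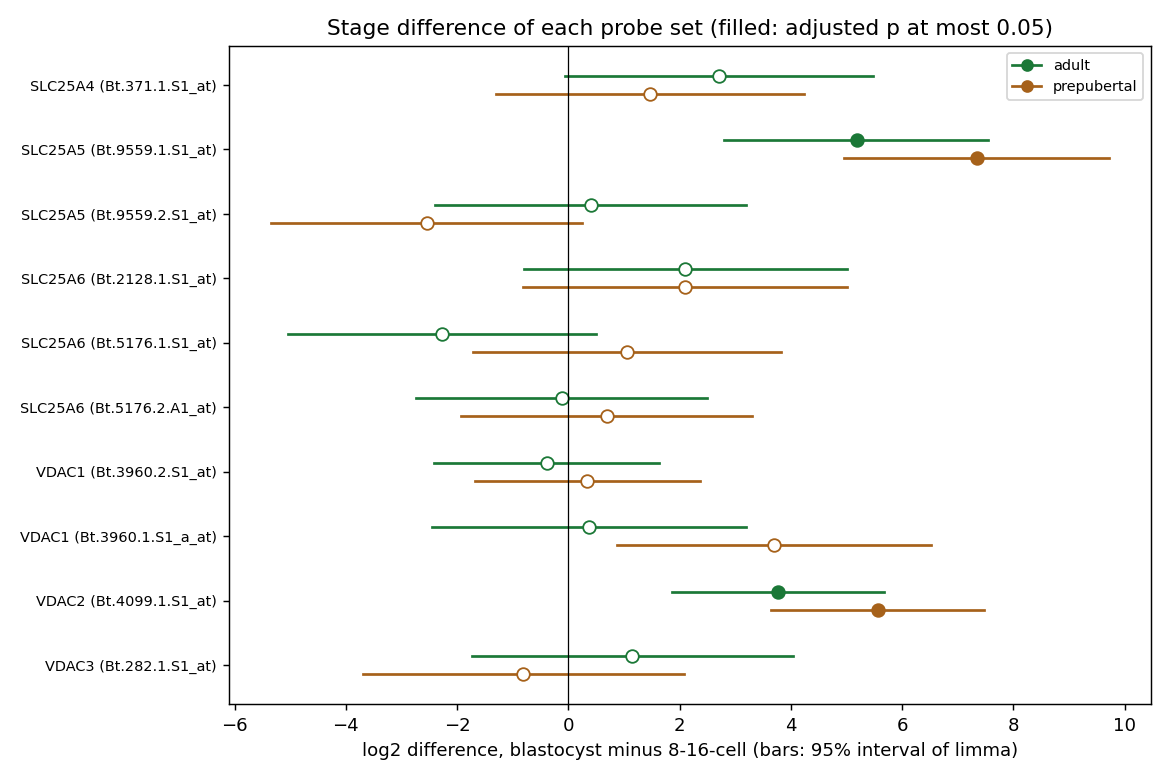
Log2 difference between blastocysts and 8-16-cell embryos for each of the 10 probe sets in adult and prepubertal embryos, with the 95% interval of the limma fit. Filled points (adjusted p at most 0.05) are SLC25A5 (Bt.9559.1.S1_at) and VDAC2 in both donor groups. The intervals of the other probe set of SLC25A5 and of VDAC3 cross 0. That of VDAC1 Bt.3960.1.S1_a_at in prepubertal embryos, 0.87 to 6.51, does not, although its limma adjusted p was 0.174.

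**Figure D3:**
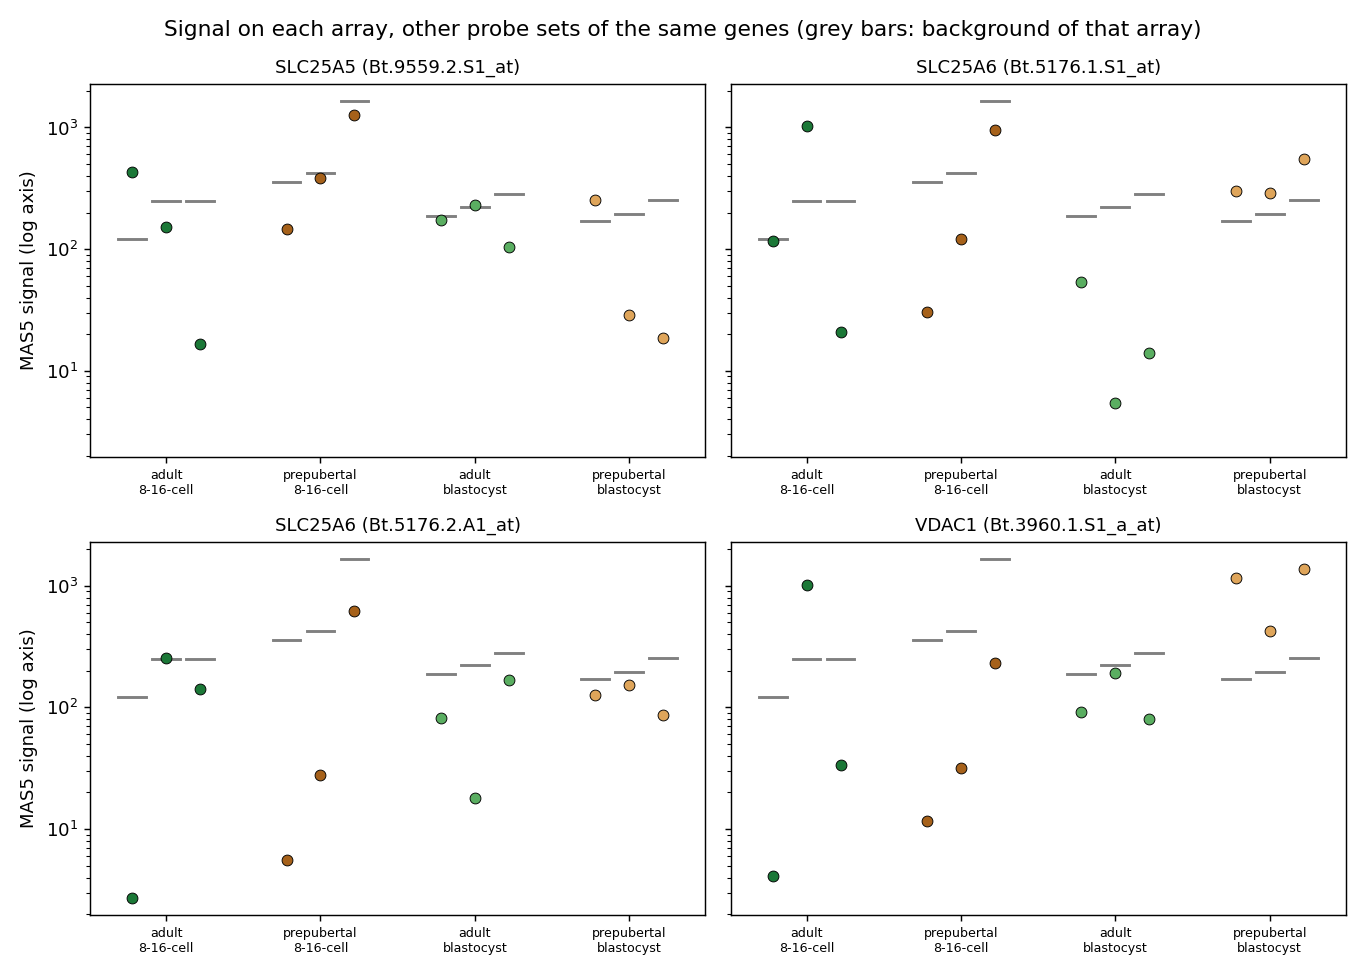
MAS5 signal (log axis) of the 4 dimmer probe sets of SLC25A5, SLC25A6 and VDAC1 on every array, by group, with a grey bar at that array's background. Most points lie under the bar, and the 3 prepubertal blastocyst arrays lie above it for Bt.5176.1.S1_at and Bt.3960.1.S1_a_at.

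Paralogs were then compared within each array, which removes the scaling between arrays. The change between stages of one gene was set against that of another of its family with an exact two-sided permutation test of 400 arrangements (smallest possible p = 0.005), adjusted over 6 pairs. VDAC2 gained 4.69 on the log2 scale over VDAC1 (SE 0.62, exact p = 0.005, adjusted p = 0.03). Within arrays the VDAC2 minus VDAC1 value ran from -4.53 to -0.5 at the 8-16-cell stage and from 2.02 to 3.02 in blastocysts, and the gain was 4.16 in adult and 5.22 in prepubertal embryos. This difference passed on leaving out each array in turn, with values of 4.2 to 5.21.

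SLC25A5 gained 4.17 over SLC25A4 (SE 0.89, exact p = 0.01, adjusted p = 0.03), 2.47 in adult and 5.88 in prepubertal embryos, and passed on leaving out each array in turn. SLC25A6 minus SLC25A5 changed by -4.15 (SE 1.40, exact p = 0.015, adjusted p = 0.03), and VDAC3 minus VDAC2 by -4.5 (SE 1.52, exact p = 0.02, adjusted p = 0.03). These calls depended on which arrays were included, while the values stayed negative on every omission. The first did not pass without adult 8-16-cell replicates 2 or 3 (-3.7 and -4.14), prepubertal 8-16-cell replicates 1, 2 or 3 (-4.01, -4.27 and -4.19), or adult blastocyst replicates 2 or 3 (-4.17 and -3.25). The second passed only without adult 8-16-cell replicate 1 (-5.81, adjusted p = 0.015) or adult blastocyst replicate 1 (-4.78, adjusted p = 0.0375), and the other 10 omissions gave -4.82 to -3.75.

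No unequal change was detected between SLC25A6 and SLC25A4 (0.02, SE 1.55, exact p = 0.985) or between VDAC3 and VDAC1 (0.19, SE 1.54, exact p = 0.94), and their standard errors do not show that these genes changed alike. The result also depended on the probe set. With Bt.9559.2.S1_at for SLC25A5, its change fell below that of SLC25A4 (-3.16, exact permutation adjusted p = 0.04). With Bt.3960.1.S1_a_at for VDAC1, the gain of VDAC2 was 2.64 and did not pass (exact permutation adjusted p = 0.112). Probe sequences were not analysed here, and how far probes of one carrier read its paralogs was not tested.

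**Figure D4:**
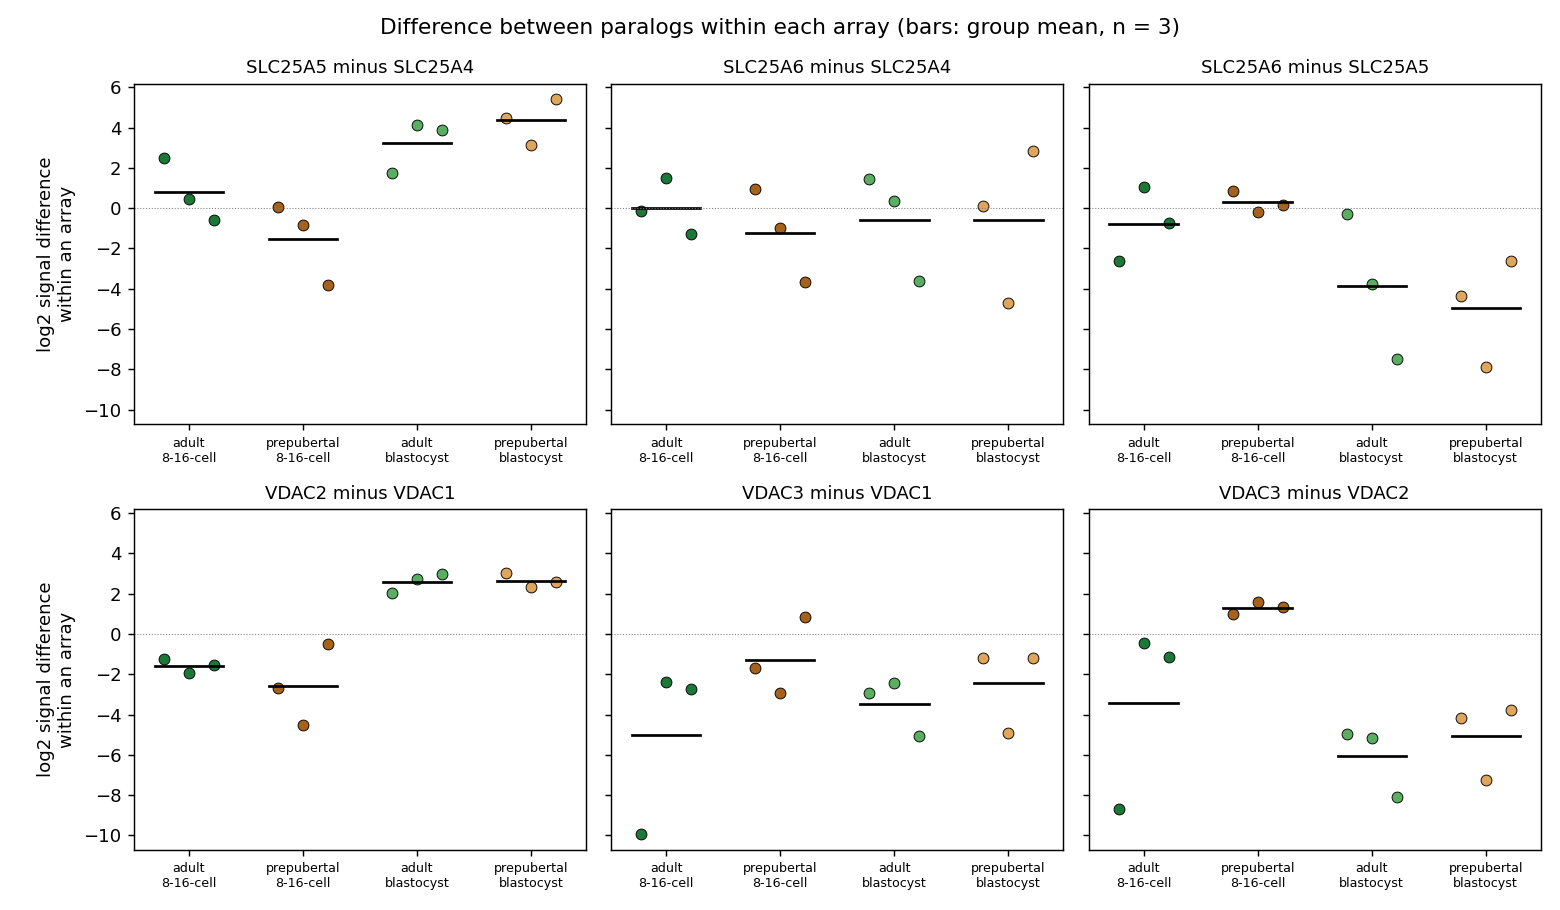
Log2 signal of one gene minus that of its paralog within each array, by group, for the brightest probe set of each gene (points: arrays, bars: group means, n = 3). Only changes across groups are meaningful, and VDAC2 minus VDAC1 lies between -4.53 and -0.5 at the 8-16-cell stage and between 2.02 and 3.02 in blastocysts.

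The origin of the oocytes was the question the study was designed around. None of the 10 probe sets passed limma's test between prepubertal and adult embryos at the 8-16-cell stage, in blastocysts or in the difference between these effects. Of all probe sets, 0.0208% were called at the 8-16-cell stage, 0% in blastocysts and 0% for the difference between effects. At an unadjusted p of 0.05, the counts of probe sets described here were 1, 1 and 0, and those of all probe sets were 2166, 884 and 1307. The donor and stage comparisons share arrays, so they are not independent. The median over the 10 probe sets was -0.22 against 0.59 for all probe sets at the 8-16-cell stage, and 0.31 against 0.16 in blastocysts.

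At the 8-16-cell stage the prepubertal minus adult difference was -1.85 (SE 0.97, adjusted p = 0.566) for VDAC2 and -1.37 (SE 1.20, adjusted p = 0.753) for SLC25A5, with overlapping arrays. Without prepubertal replicate 3 these values were -1.47 (adjusted p = 0.822) and -0.43 (adjusted p = 0.975). VDAC3 had the smallest unadjusted p, 0.0487, with 2.90 (SE 1.46, adjusted p = 0.551) and overlapping arrays, 1 of which read 6 in the adult group. Without that array (adult replicate 1) it was 0.93 (adjusted p = 0.926), and without prepubertal replicate 3 it was 3.25 (adjusted p = 0.781). In blastocysts VDAC2 differed by -0.05 (SE 0.97, adjusted p = 1, 95% interval -1.96 to 1.86) and SLC25A5 by 0.79 (SE 1.20, adjusted p = 1). These SEs and the interval use a spread pooled over both stages and over probe sets of similar level. The SD of VDAC2 within blastocyst groups alone was 0.10 in adult and 0.43 in prepubertal embryos.

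In blastocysts, all prepubertal arrays exceeded all adult arrays on 2 of the 10 probe sets, where 6.04% of all probe sets did so. These were Bt.5176.1.S1_at of SLC25A6 (at least 1.56-fold, limma adjusted p = 1) and Bt.3960.1.S1_a_at of VDAC1 (at least 3.66-fold, limma adjusted p = 1). In both cases no adult blastocyst array was above background. The brighter probe sets of the same genes differed by -0.31 and -0.12 between donor groups in blastocysts (adjusted p = 1 each).

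The stage difference itself was larger in prepubertal embryos by 2.16 (SE 1.70, adjusted p = 0.951) for SLC25A5 and by 1.79 (SE 1.37, adjusted p = 0.951) for VDAC2. Neither passed the test. Without prepubertal 8-16-cell replicate 3 the values were 1.22 and 1.41 (adjusted p = 0.988 and 0.975), and leaving out 1 array gave 0.95 to 3.08 for SLC25A5.

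ATP synthase makes the ATP that the carriers export. Of 21 listed genes 19 were measured, of which 3 rose in adult embryos, 8 in prepubertal embryos and 10 in the mean of both, with none lower. Over all probe sets, 1.26%, 1.43% and 3.9% were called higher in these comparisons. The list medians were 2.58, 3.73 and 3.26, against 0.08, -0.37 and -0.17 for all probe sets. ATP5MC3, a subunit of the rotating membrane ring, rose by 6.06 (SE 0.96, adjusted p = 5.49e-07) in the mean of both and by at least 32.8-fold in prepubertal embryos (52.7-fold without prepubertal 8-16-cell replicate 3). ATP5F1A, the alpha subunit of the catalytic head, rose by 4.29 (SE 0.72, adjusted p = 2.64e-06), and ATP5PO, a subunit of the stalk, by 4.82 (SE 1.01, adjusted p = 0.00024). ATP5IF1, which inhibits the enzyme when it runs in reverse, rose by 3.26 (SE 0.66, adjusted p = 0.000149). The stages overlapped for ATP5IF1, with 29281 on adult 8-16-cell replicate 3 and 17609 on prepubertal blastocyst replicate 2. Within donor groups ATP5F1A was called only in prepubertal and ATP5IF1 only in adult embryos. With every signal raised to the highest background the rises of ATP5MC3, ATP5F1A and ATP5PO were 2.94, 3.43 and 1.72 and still passed, while ATP5IF1 did not (2.84, adjusted p = 0.0563). In prepubertal embryos ATP5ME, a small membrane subunit, rose by at least 11.1-fold (adjusted p = 0.00513), and ATP5F1E, the epsilon subunit of the central stalk, by at least 9.46-fold (adjusted p = 0.0256). ATP5ME did not pass with raised signals (adjusted p = 0.133) or without prepubertal blastocyst replicate 1 (adjusted p = 0.0608). ATP5F1E did not pass with raised signals (adjusted p = 0.084), without prepubertal 8-16-cell replicate 3 (adjusted p = 0.101), or on leaving out any 1 prepubertal blastocyst array (adjusted p = 0.0921, 0.159 and 0.0661).

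Without prepubertal 8-16-cell replicate 3 the counts of called ATP synthase genes were 5, 6 and 12 in adult embryos, prepubertal embryos and the mean of both. The adult count was 1 without adult 8-16-cell replicates 1 or 3 or on leaving out any 1 adult blastocyst array. The prepubertal count was 3 on leaving out any 1 prepubertal blastocyst array and 5 without adult blastocyst replicates 2 or 3.

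The other mitochondrial carriers did not move as a body. Of 49 listed genes 29 were measured, and in the mean of both donor groups 3 rose and 2 fell, with a median of -0.56. Of all 24016 probe sets, 936 were called higher and 602 lower in that comparison. SLC25A3 carries into the matrix the phosphate that ATP synthase joins to ADP. It read 689, 2240 and 25 in adult and 4466, 2697 and 29 in prepubertal 8-16-cell embryos, and 14567 to 29136 over the 6 blastocyst arrays. It rose by 5.67 (adjusted p = 0.00263) in adult embryos, or 4.02 (adjusted p = 0.0969) without adult 8-16-cell replicate 3. In prepubertal embryos it rose by 4.56 (adjusted p = 0.0231), or 2.46 (adjusted p = 0.3) without prepubertal 8-16-cell replicate 3. This prepubertal call was also lost on leaving out any 1 prepubertal blastocyst array (4.76, 4.29 and 4.64, adjusted p = 0.0821, 0.148 and 0.0927). The mean rise of SLC25A3 over both donor groups was 5.11 (limma adjusted p = 5.81e-06). It passed under every alternative run (3.14 to 5.73, largest adjusted p = 0.00132). With signals raised to the highest background, the adult and prepubertal rises were 3.46 and 2.82 and both passed.

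SLC25A20, the carnitine and acylcarnitine carrier, rose by 3.88 (adjusted p = 0.00735, or 3.15 and 0.0504 without adult 8-16-cell replicate 1), and MTCH1, an outer-membrane relative of the carriers, by 2.93 (adjusted p = 0.0233). MTCH1 was lost without adult 8-16-cell replicate 3 (1.91), prepubertal 8-16-cell replicate 2 (2.79), adult blastocyst replicate 2 (2.36), or prepubertal blastocyst replicates 2 or 3 (2.82 and 2.95). SLC25A25, an ATP-magnesium and phosphate carrier, fell by 4.84 (adjusted p = 0.000517) in the mean of both, and SLC25A44, a carrier of branched-chain amino acids, by 3.38 (adjusted p = 0.0225). In adult embryos SLC25A25 was at least 9.68-fold lower in blastocysts (adjusted p = 0.0111), a call that ended on leaving out adult 8-16-cell replicate 3 (-4.75) or adult blastocyst replicates 1 or 3 (-5.48 and -5.55). SLC25A44 was lost without adult or prepubertal 8-16-cell replicate 2 (-3.09 and -3.02), adult blastocyst replicates 1 or 3 (-3.05 and -3.23), or prepubertal blastocyst replicate 3 (-3.15). With signals raised to the highest background, the values of SLC25A20, MTCH1, SLC25A25 and SLC25A44 were 0.81, 2.02, -0.91 and -1.16, and none of these passed.

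Carriers and porins are made in the cytosol and imported. Among 14 genes of outer-membrane import and insertion, 11 were measured, with medians of 1.17 in adult and 1.03 in prepubertal embryos, and 1 rose in each comparison of stages. This was TOMM7, a small subunit of the import pore complex, which rose by 6.60 (adjusted p = 0.000151) in adult and 4.37 (adjusted p = 0.0289) in prepubertal embryos. The prepubertal call was lost without prepubertal 8-16-cell replicates 2 or 3 (3.83 and 3.91) or any 1 prepubertal blastocyst array (4.44, 4.76 and 3.89). The mean rise of TOMM7 over both donor groups was 5.48 (limma adjusted p = 5.88e-07). It passed under every alternative run (3.32 to 6.66, largest adjusted p = 0.00257). With signals raised to the highest background, the adult and prepubertal rises were 3.31 and 3.32 and both passed. Among 9 genes that guide carriers to the inner membrane, 6 were measured, with a median of 1.53, and 1 passed in the mean of both. It was TIMM8B, a chaperone of the space between the membranes (3.48, adjusted p = 0.0171), whose call ended on leaving out adult 8-16-cell replicates 2 or 3 (2.72 and 3.01) or adult blastocyst replicate 1 (3.12), and with signals raised to the highest background (0.91, adjusted p = 0.345). Beside the counts of these import lists, the shares of all probe sets called higher were 1.26% in adult embryos, 1.43% in prepubertal embryos and 3.9% in the mean.

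Of 22 partners of porins and carriers, 15 were measured, with a median of 0.99 in the mean of both. Among these 1 was called, where 3.9% of all probe sets were called higher. The creatine kinase CKMT1A, which works between carrier and porin, passed (2.94, SE 0.86, adjusted p = 0.0174). Its call ended on leaving out adult 8-16-cell replicate 2 (2.41), adult blastocyst replicate 2 (2.83) or prepubertal blastocyst replicate 1 (2.87). Regulators of mitochondrial biogenesis (11 of 16 measured) had a median of -0.03. Among these 1 was called lower in adult embryos and in the mean of both, where 209 and 602 of all 24016 probe sets were. NRF1, a transcription factor for nuclear genes of respiration, was lower in adult blastocysts by at least 7.69-fold (adjusted p = 0.00477, or 0.0519 without adult 8-16-cell replicate 1), and it did not pass with signals raised to the highest background (-0.7, adjusted p = 0.399). In the mean of both, NRF1 fell by 3.41 (adjusted p = 0.0192). This call ended on leaving out adult 8-16-cell replicate 1 (-2.96), prepubertal 8-16-cell replicate 2 (-2.67) or prepubertal blastocyst replicate 3 (-3.03). It also ended with raised signals (-0.35, limma adjusted p = 0.432). NRF1 was not called in prepubertal embryos, where the stages overlapped. Prepubertal arrays read 11, 1189 and 103 at the 8-16-cell stage and 107, 206 and 18 as blastocysts. None of these lists had a gene called in a donor comparison by limma.

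**Figure D5:**
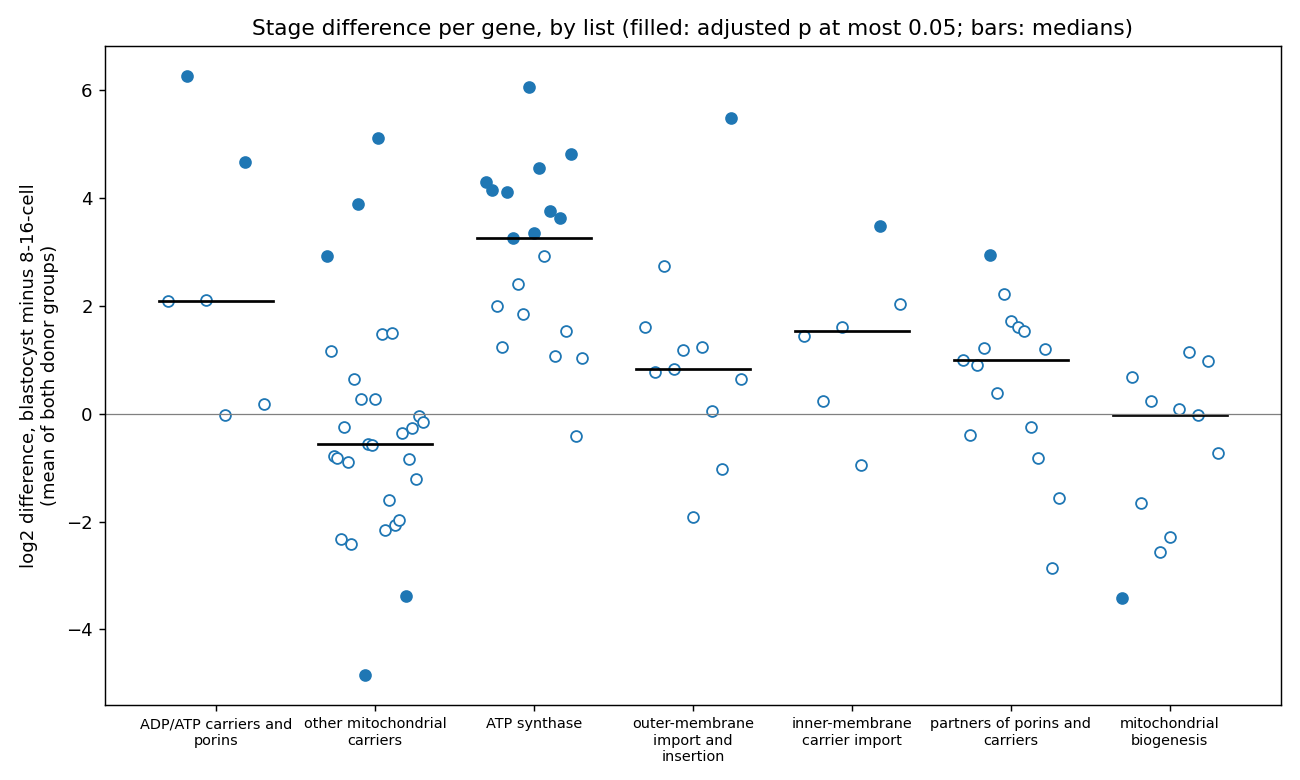
Log2 difference between blastocysts and 8-16-cell embryos (mean of both donor groups) for each measured gene, by list, with filled points at an adjusted p of at most 0.05 and bars at list medians. The ATP synthase list has its median at 3.26 and 10 filled points, and that of the other mitochondrial carriers lies at -0.56.

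The genes whose pattern over the 12 arrays was nearest to each leading probe set were found by the root mean square difference of centred log2 values, as a description. For SLC25A5 they were ITM2B (1.01) and IDH1 (1.03), where the median over all probe sets was 3.81. For VDAC2 they were RAB14 (0.72) and ITGB1 (0.76), with a median of 3.07. For SLC25A4 they were TAGLN and CTNNBIP1 (0.73 each, median 2.07), for SLC25A6 GOT2 (0.86) and DNAJA1 (1.12, median 2.56), for VDAC1 FAM98A (0.60) and ATP2A2 (0.66, median 2.11), and for VDAC3 AGO2 (1.03) and EIF3K (1.12, median 2.56). No member of either family was among the 2 nearest genes of another. With so few kept out of all named probe sets, this does not show that family members differ in pattern.

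The labels do not say which pools had animals, a bull or a culture day in common, so p-values measure only the spread between these pools, and 3 arrays a group limit the precision. The median SE of a difference between groups was 1.30 on the log2 scale. limma weighted each probe set's own spread (8 residual degrees of freedom) far less than the spread of probe sets of similar level (195.66).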

How the data were processed

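RNA of embryo pools was amplified (WT-Ovation Pico) and hybridized as biotin-labelled cDNA to an Affymetrix bovine array, per the labels' protocols. The deposited values are signal intensities per probe set on a linear scale, made with MAS5 per the submitters' processing notes. The sources used here give no version, settings or detection calls. The mean after trimming 2% at each end was 500.19 to 500.31 on every array. Of 24128 probe sets, 112 Affymetrix controls were left out and 24016 tested. The table held 0 columns of other series.

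Names came from the platform annotation, updated by gene identifier: 13292 probe sets name 1 gene, 86 several and 10638 none. A gene's leading probe set has the highest mean log2(signal + 16). limma 3.58.1 (R 4.3.3) fitted one mean per group over the 12 arrays (lmFit, eBayes with trend), two-sided, with Benjamini-Hochberg adjustment over 24016 probe sets and calls at 0.05. Background is the highest of 27 Bacillus subtilis control probe sets, and if these were added to the samples it is too high. "At least" folds raise the dim group's signals to it and are used where all of that group's arrays are below it. Scripts were tested on simulated data.

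Text names every probe set of the 6 genes, the called list genes (up to 4 of smallest p per list, direction and comparison) and the 2 nearest patterns. The genes and lists were chosen with earlier results of these data known. Alternatives were other offsets, scalings, filters, a background floor, array weights, variance priors, a replicate block and leaving out each array. Leaving out prepubertal 8-16-cell replicate 3 together with quantile normalization, and the list counts under each alternative, were added after seeing the data.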

Additional observations from a re-analysis of the deposited data

How the results depend on the processing

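SLC25A5 (Bt.9559.1.S1_at) and VDAC2 kept their direction and their call under every alternative run in prepubertal embryos and in the mean of both donor groups. In adult embryos the number of called probe sets, 2, was 1 with a prior that ignores signal level, and 0 to 2 on leaving out 1 array. Over the alternatives the prepubertal rise was 4.67 to 8.25 for SLC25A5 and 4.5 to 6.45 for VDAC2, and the adult rise 3.51 to 6.39 and 3.09 to 4.44. Counts of called probe sets in donor comparisons stayed at 0. Over 2139 alternative values of single genes, 123 called ones no longer passed, 0 called ones turned direction and 83 uncalled ones changed sign. The 2139 include values of genes that were not called at first and so had no call to lose.

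For paralogs, log2(signal + 1) gave -4.28 for VDAC3 minus VDAC2 (exact permutation adjusted p = 0.075). Other probe sets of SLC25A5 and SLC25A6 gave -3.16 (SLC25A5 minus SLC25A4) and 3.18 (SLC25A6 minus SLC25A5) with Bt.9559.2.S1_at, both opposite in sign to the value reported, and -2.7 and -1.8 (SLC25A6 minus SLC25A4) with Bt.5176.1.S1_at and Bt.5176.2.A1_at. Bt.3960.1.S1_a_at for VDAC1 gave 2.64 (VDAC2 minus VDAC1) and -1.86 (VDAC3 minus VDAC1). The cause was not tested. Leaving out 1 array gave 3.6 to 4.6 (SLC25A5 minus SLC25A4), -0.83 to 1.05 (SLC25A6 minus SLC25A4), -5.04 to -3.25 (SLC25A6 minus SLC25A5), 4.2 to 5.21 (VDAC2 minus VDAC1), -1.04 to 0.85 (VDAC3 minus VDAC1) and -5.81 to -3.75 (VDAC3 minus VDAC2).

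The labels do not say whether same-numbered pools share anything. Over 12 same-numbered pairs the correlation of deviations was -0.03 to 0.04. In 9 of 12 comparisons an array correlated best, or tied for best after rounding, with its own number. The replicate block left the counts of called probe sets at 2 in each comparison of stages. With stages swapped within pairs, the paralog differences of 4.17, -4.15, 4.69 and -4.5 had exact permutation adjusted p = 0.0938 each. Such swaps allow far fewer arrangements than the main permutation test, so the smallest possible p is much larger. VDAC2 minus VDAC1 was at most -0.5 in 8-16-cell embryos and at least 2.02 in blastocysts. Its unadjusted p was therefore already the smallest that these swaps can give. The swaps thus cannot decide whether that difference holds within pairs.

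Over all probe sets, the adult stage count of 512 was 241 with signals raised to the highest background, 889 with array weights and 253 to 794 on leaving out 1 array, and 783 without prepubertal 8-16-cell replicate 3 after quantile normalization. The prepubertal count of 563 was 298 with raised signals and 272 to 611 on leaving out 1 array, and the count of 1538 for the mean was 603 with raised signals. The 8-16-cell donor count of 5 was 0 to 17, and the blastocyst donor count of 0 was 2 with only those groups fitted. Raised signals took the called ATP synthase genes from 10 to 6.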
